A study of Homo sapiens with 9 samples.

Results

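The genes described here are those of glycolysis and of the transcriptional response to low oxygen in MDA-MB231 cells, an established human breast cancer cell line. The list held 33 genes, and 29 of them could be taken from the 18132 genes of the array table. They were 17 glycolytic enzymes, the glucose transporter SLC2A1, 3 regulators of glycolytic and pyruvate flux, 6 other genes of the hypoxia response, the HIF subunit HIF1A and myoglobin (MB). SLC16A1, SLC16A3 and CA9 had no probe set in the annotation used and were not analysed here, nor was SLC2A3, whose 5 probe sets were shared with SLC2A14. Where a gene had several probe sets, the brightest by its mean over the 9 arrays was read.

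RNA was measured on 9 Affymetrix PrimeView arrays, 1 for each culture. All cultures were plated at 70% confluency in medium with 10% serum and, the day after, received fresh medium with vehicle or an inhibitor for 24 h. The 4 control cultures received 0.1% DMSO. The 2 BB94 cultures received 10 µM BB94 (batimastat), which inhibits metalloproteinases broadly. The 3 PD325901 cultures received 3 µM PD325901, which inhibits MEK, the kinase that activates ERK. Both inhibitors came from a 10 mM stock in DMSO, and the labels do not state the DMSO content of the inhibitor cultures. No culture is labelled as hypoxic, and the oxygen level is not stated. The labels call the samples biological replicates of this single line, and no batch was given, so p-values measure the spread between these cultures.

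Glycolysis splits glucose into pyruvate in a chain of enzymes, most of which exist as isozymes encoded by separate genes. Lactate dehydrogenase then turns pyruvate into lactate, which regenerates the NAD+ that the chain consumes, and transporters carry glucose in and lactate out. The transcription factor HIF, made of an oxygen-regulated alpha subunit and ARNT, induces most of these genes when oxygen falls, together with genes for pH control, mitophagy, collagen modification and feedback on HIF itself. Prolyl hydroxylases of the EGLN family mark the alpha subunit for destruction when oxygen is present, and this control acts on the protein rather than on its RNA. Breast cancer lines commonly run glycolysis at a high rate even in air, and growth factor signalling through ERK is a known input into it.

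All values are deposited log2 probe set summaries, so a difference of 1 is a 2-fold difference, and levels are not compared between genes. Genes whose adjusted p lay under 0.05 in a limma fit over all genes and arrays, with Benjamini-Hochberg adjustment, are termed called, and all adjusted p-values are from that fit unless said otherwise. The background level of an array was that of its highest background probe set and lay between 6.02 and 6.50. On the control and BB94 arrays 28 of the 29 genes lay above it, and on the PD325901 arrays all 29 did. The 5 markers expected in this line (VIM, CD44, AXL, CAV1, MSN) were above background on all arrays, and ESR1, PGR and CDH1 below it on all, while EPCAM, expected to be low, stood at 9.42 in control. Of 4 leukocyte and 4 fibroblast markers, 1 each lay above background on any array (LYZ and COL1A1). PD325901 lowered all 6 ERK output genes read as a check of the inhibitor, among them DUSP6 (log2 -4.01) and CCND1 (-3.29). The PD325901 arrays differed widely in 3 of these genes, with an SD of 1.54 for DUSP6, 0.97 for SPRY4 and 0.95 for ETV5 (n = 3) against 0.12, 0.09 and 0.06 in control (n = 4), and DUSP6 ran from -5.27 to -3.35 over the alternative settings. Control replicates 3 and 4 stood apart from replicates 1 and 2: in 16 of the 29 genes, 12 of them glycolytic enzymes, both lay above both of the others, and in 5 genes both lay below. The same count was not made over all genes, so the split is not shown to be particular to these genes. Bulk RNA does not tell fewer transcript-bearing cells from less RNA per cell.

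PD325901 raised some genes of glycolysis and of the hypoxia response and lowered others. Of the 29 genes, 5 rose (MB, EGLN3, ALDOC, PFKM and ADM) and 7 fell (ENO1, ENO2, PFKFB3, PFKP, BNIP3, NDRG1 and PGAM1), while 17 were not called. The 12 calls are 41.4% of the genes, against a background of 35.1% of all 18132 genes called in this comparison, with 22.8% called higher and 12.3% called lower. Among the glycolytic enzymes 2 rose, 4 fell and 11 were not called, with a median log2 change of -0.09 and a range of -0.53 to 0.57. Among the 6 other hypoxia-response genes 2 rose, 2 fell and 2 were not called, with a median of -0.07. The median over all genes was 0.08. At least 2-fold calls were MB and EGLN3 alone, or 6.90% of the genes against 7.93% of all genes, and the median absolute change was 0.14 against 0.19. Both roles therefore held genes that moved in opposite directions. The 6 calls of MB, EGLN3, ALDOC, PFKP, ENO1 and ENO2 were kept under all 20 alternative settings tried. With each array centred on its median over genes, which lowers every change in this comparison by a like amount and brings the median of all genes to -0.17, the counts were 3 higher and 15 lower. That setting called 2353 higher and 5076 lower among all 18132 genes, against 4142 and 2223 in the main fit. PGAM1, BNIP3 and NDRG1 lost their calls whenever any array other than control replicate 1 was left out, which brought the 7 falls to 4. Over all genes 1779 to 2244 were then called lower.

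**Figure D1:**
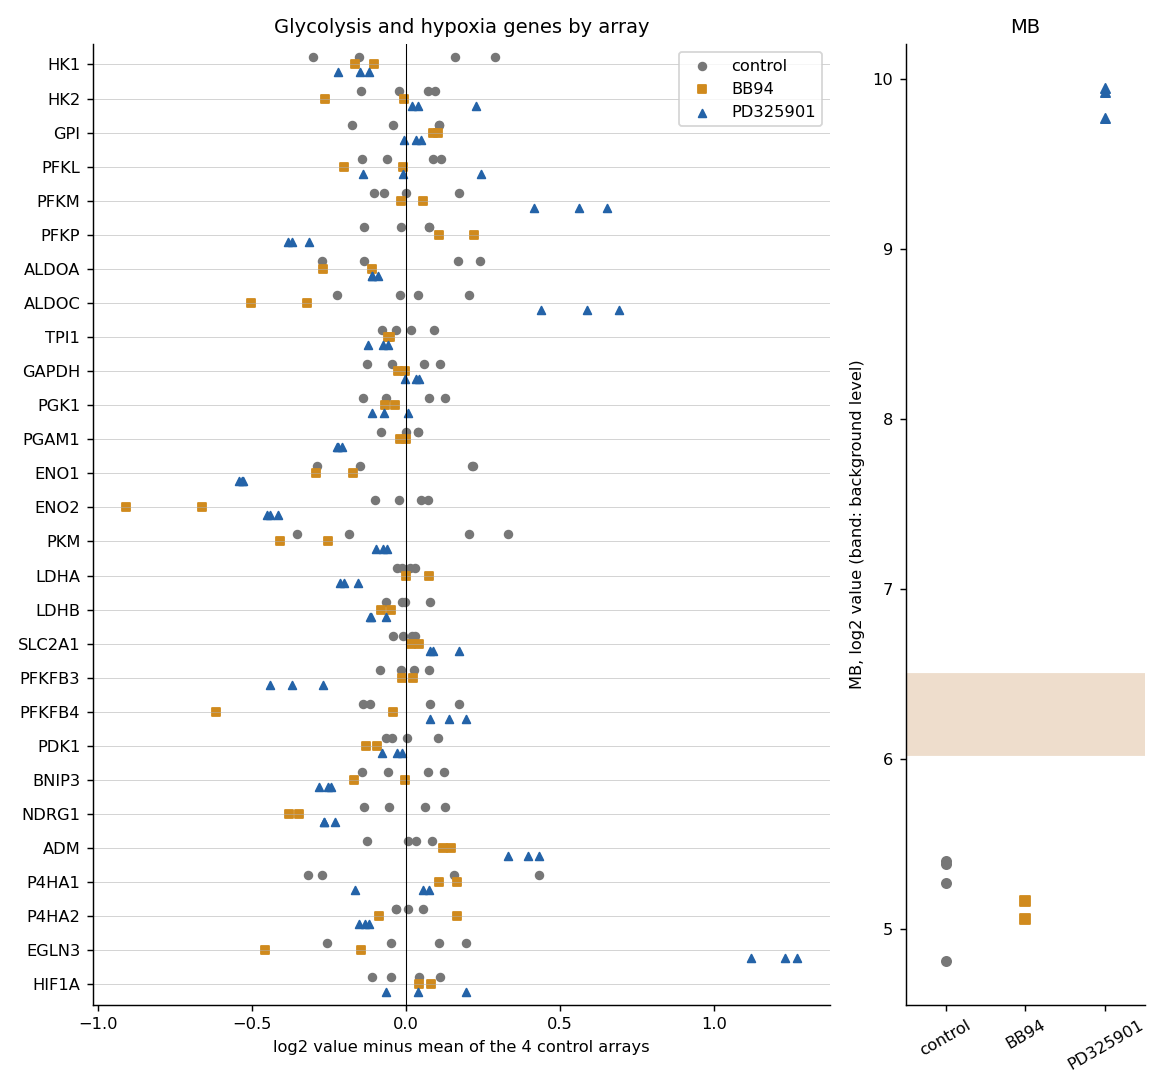
Left, the log2 value of each gene on each array minus the mean of the 4 control arrays, with 4 control (circles), 2 BB94 (squares) and 3 PD325901 (triangles) arrays. Right, the log2 value of MB on each array with the range of background levels as a band. The PD325901 arrays of EGLN3, ALDOC and PFKM lie right of all controls, those of ENO1, ENO2, PFKP and PFKFB3 left of all controls, and MB stands at 9.77 to 9.95 on the PD325901 arrays.

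HIF binds DNA at a short core, and the promoters of called genes that hold this core are shown to let the sequence be set beside the direction of change. The windows run from 250 bases before to 50 bases after each gene's start, from RefSeq on GRCh38.p14, and were found for 28 of the 29 genes. The letters searched were ACGTG and GCGTG on both strands, so that the palindrome CACGTG counts as 2 overlapping matches. Of the genes that rose, ALDOC (aldolase C) had 5 matches and ADM (adrenomedullin) 1. Of those that fell, ENO1 and ENO2, which encode enolases, had 2 and 1. These are the called genes with the largest rises and falls that held a match. Capitals mark the matches, and each run reads 5′ to 3′ on the gene's own strand, chr17:28576846-28577145 (minus) for ALDOC, chr11:10304823-10305122 (plus) for ADM, chr1:8878637-8878936 (minus) for ENO1 and chr12:6914330-6914629 (plus) for ENO2.
ALDOC: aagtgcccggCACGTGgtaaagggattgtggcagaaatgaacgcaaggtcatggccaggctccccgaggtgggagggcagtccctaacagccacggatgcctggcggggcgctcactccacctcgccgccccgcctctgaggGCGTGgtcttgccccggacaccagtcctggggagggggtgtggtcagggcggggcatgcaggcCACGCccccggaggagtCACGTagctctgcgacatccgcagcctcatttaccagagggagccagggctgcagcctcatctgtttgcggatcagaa
ADM: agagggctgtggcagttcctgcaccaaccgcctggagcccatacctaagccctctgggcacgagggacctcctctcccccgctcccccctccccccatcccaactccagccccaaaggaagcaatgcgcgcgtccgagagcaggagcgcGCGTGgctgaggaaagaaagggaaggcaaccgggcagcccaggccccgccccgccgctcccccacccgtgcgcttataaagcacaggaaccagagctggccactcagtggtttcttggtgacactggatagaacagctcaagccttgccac
ENO1: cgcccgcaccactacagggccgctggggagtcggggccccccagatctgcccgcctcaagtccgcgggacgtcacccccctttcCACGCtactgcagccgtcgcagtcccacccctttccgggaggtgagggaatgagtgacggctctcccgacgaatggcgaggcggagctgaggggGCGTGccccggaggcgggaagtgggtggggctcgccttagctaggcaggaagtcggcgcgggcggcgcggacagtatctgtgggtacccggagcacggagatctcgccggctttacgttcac
ENO2: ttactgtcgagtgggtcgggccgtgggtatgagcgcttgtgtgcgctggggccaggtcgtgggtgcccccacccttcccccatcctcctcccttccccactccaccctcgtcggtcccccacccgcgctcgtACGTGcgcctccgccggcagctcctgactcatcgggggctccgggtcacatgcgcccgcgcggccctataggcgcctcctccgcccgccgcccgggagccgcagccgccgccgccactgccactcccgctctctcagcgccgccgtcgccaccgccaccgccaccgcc

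The core was present in promoters of genes that rose, fell and were not called. It was found in 2 of 5 promoters of genes that rose, in 4 of 6 of those that fell and in 13 of 17 of those not called, against 48.4% of 27305 promoters of the same length. Over the 28 genes the share was 67.9%. LDHA and BNIP3 had 6 matches each and PGK1 4, while EGLN3, MB, PFKM, PFKP and PGAM1 had 0. The windows hold no distal site, and a match is a description of letters only.

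The largest change was that of MB, which encodes the oxygen-binding protein of muscle and was included as an oxygen-related gene. MB stood at 5.40, 5.27, 4.81 and 5.38 on the control arrays, at 5.16 and 5.06 on the BB94 arrays and at 9.92, 9.95 and 9.77 on the PD325901 arrays. All control and BB94 values lay below background and all PD325901 values above it, with no overlap. The rise was at least 12.7-fold against control (adjusted p = 5.9e-09). Its other 2 probe sets were called higher as well, and were above background on 3 and 2 of the 9 arrays. Of 10 muscle markers examined, 8 (CKM, ACTA1, MYH2, MYH7, TNNI1, DES, MYOG and MYOD1) lay below background on all 9 arrays. TNNT1, a troponin T gene, was above background throughout and rose by 0.37, and the troponin C gene TNNC1 was above background on the 3 PD325901 arrays alone, with a mean of 6.93 there. The summed level of the 10 markers on the log2 scale ran from 12.55 to 12.94 in control, from 12.69 to 12.73 in BB94 and from 13.09 to 13.18 in PD325901. The values were summed before the log was taken, so this sum is almost wholly TNNT1, with means of 12.72 in control and 13.08 under PD325901. It is not a rise of the marker set. The part of the troponin genes in the MB result was not tested.

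EGLN3, the prolyl hydroxylase gene that HIF itself induces, had the next largest change. It stood at 8.11, 8.03, 7.87 and 7.66 in control, at 7.77 and 7.46 under BB94 and at 9.19, 9.04 and 9.15 under PD325901. The PD325901 arrays lay above all others, and the rise was 2.31-fold (log2 1.21, SE 0.12, adjusted p = 2.2e-05). With the mean of its 3 probe sets the rise was 0.78, below 2-fold and still called. A dimmer EGLN3 probe set, above background on 4 of 9 arrays, rose by 1.10 under PD325901 and fell by 0.65 under BB94 (limma adjusted p = 0.0319 over 49293 probe sets), while the probe set used had a BB94 change of -0.30 (adjusted p = 0.466). The third, below background on all arrays, had a PD325901 change of 0.04. ADM, a secreted vasodilator peptide gene, stood at 12.70, 12.48, 12.62 and 12.64 in control and at 13.04, 12.94 and 13.01 under PD325901, a 1.31-fold rise (adjusted p = 0.0028). Its BB94 values of 12.73 and 12.76 lay between the groups. The other 2 ADM probe sets also rose, by 0.79 and 0.49, and centring on the median over genes ended the ADM call (adjusted p = 0.25).

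Of the remaining hypoxia-response genes 2 fell and 2 were not called. BNIP3, a mitophagy receptor gene, stood at 11.59, 11.68, 11.86 and 11.81 in control and at 11.49, 11.48 and 11.45 under PD325901, a 1.20-fold fall (adjusted p = 0.043). NDRG1, a stress-responsive gene of growth arrest, stood at 11.83, 11.92, 12.10 and 12.03 in control, at 11.62 and 11.59 under BB94 and at 11.74, 11.70 and 11.70 under PD325901. Its fall was 1.19-fold under PD325901 (adjusted p = 0.0363), and its BB94 change of -0.36 was not called (adjusted p = 0.115). The collagen prolyl hydroxylase genes P4HA1 and P4HA2 had changes of -0.01 (95% interval -0.39 to 0.36) and -0.13 (-0.31 to 0.05). P4HA1 ran from 11.29 to 12.04 among the controls, the widest control spread of all 29 genes (SD 0.36), with replicates 1 and 2 above replicates 3 and 4. With control replicates 3 and 4 alone it was called higher under PD325901 (0.28, adjusted p = 0.0359).

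HIF1A, the alpha subunit that HIF is named for, did not change detectably on its brightest probe set, at 13.38 ± 0.10 (SD, n = 4) in control, 13.44 ± 0.03 (SD, n = 2) under BB94 and 13.44 ± 0.13 (SD, n = 3) under PD325901. The PD325901 change was 0.06 (95% interval -0.14 to 0.26, adjusted p = 0.692). Its other 7 probe sets, all above background on every array, had changes of -0.72 to -0.14, and 3 of them were called lower in the fit over all probe sets. The probe sets thus differed in direction, and which transcripts they read is not given in the files.

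Phosphofructokinase, the committing step of glycolysis, showed opposite changes in its isozyme genes. PFKM, the muscle-type gene, stood at 10.29, 10.36, 10.25 and 10.53 in control, at 10.41 and 10.34 under BB94 and at 10.77, 10.92 and 11.01 under PD325901. It rose 1.46-fold (log2 0.54, SE 0.09, adjusted p = 9.6e-04), with no overlap between PD325901 and the other arrays, and was not called with arrays centred over genes (adjusted p = 0.0599). PFKP, the platelet-type gene, stood at 12.14, 12.26, 12.36 and 12.35 in control, at 12.50 and 12.39 under BB94 and at 11.91, 11.97 and 11.90 under PD325901. Its fall was 1.28-fold (log2 -0.35, SE 0.08, adjusted p = 0.0059). The BB94 arrays lay above all controls without a call (adjusted p = 0.609). PFKL, the liver-type gene, had a change of 0.03 (95% interval -0.21 to 0.28). Each of PFKM and PFKP had a single probe set.

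ALDOC, the brain-type aldolase gene, rose. It stood at 6.73, 6.52, 6.78 and 6.95 in control, at 6.42 and 6.24 under BB94 and at 7.44, 7.33 and 7.18 under PD325901. The PD325901 arrays were the highest and the BB94 arrays the lowest, and the rise under PD325901 was 1.49-fold (log2 0.57, SE 0.11, adjusted p = 0.0022). The BB94 values lay just above the background levels of those arrays, 6.27 and 6.22. The other 4 ALDOC probe sets were dimmer, with changes of 0.09 to 0.29, and none was called in limma's fit over all probe sets. The brightest of these was above background on 8 of 9 arrays, and the rest on 0. With the mean of the probe sets the ALDOC rise was 0.29 (adjusted p = 0.022). ALDOA, the main aldolase gene of most cells, had a change of -0.10 (95% interval -0.38 to 0.17), at 13.00 ± 0.24 (SD, n = 4) in control and 12.90 ± 0.01 (SD, n = 3) under PD325901.

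Of the enolase genes, ENO1 and ENO2 fell. ENO1 stood at 12.54, 12.68, 13.05 and 13.05 in control, at 12.66 and 12.54 under BB94 and at 12.30, 12.30 and 12.29 under PD325901, a 1.45-fold fall (log2 -0.53, SE 0.13, adjusted p = 0.0072). Its second probe set fell by 0.51. ENO2, the neuron-type gene, stood at 7.40, 7.22, 7.38 and 7.30 in control and at 6.91, 6.89 and 6.87 under PD325901, a 1.35-fold fall (log2 -0.43, SE 0.09, adjusted p = 0.0022). In both genes every PD325901 array lay below every control array. ENO2 also fell under BB94. Their upstream neighbour PGAM1, a phosphoglycerate mutase gene, stood at 13.83, 13.91, 13.95 and 13.95 in control and at 13.70, 13.69 and 13.69 under PD325901, a 1.16-fold fall (adjusted p = 0.0367). The 3 dimmer PGAM1 probe sets fell by more, by 0.30 to 0.74, and were all called in the fit over all probe sets. The probe sets used for PGAM1, ENO1, ALDOA, ALDOC, TPI1, GAPDH, PKM, PFKL and MB carry the array maker's mark for probes that may also pair with other sequences (_x_at), so their values are uncertain to that extent. Those used for HK1, GPI, PGK1, LDHA, SLC2A1, PFKFB3, BNIP3, NDRG1, P4HA1 and HIF1A carry a different mark (_s_at). Whether their probes are shared with other transcripts was not examined.

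Neither gene of lactate dehydrogenase, the last step, was called. LDHA, the muscle-type subunit gene, stood at 13.70, 13.73, 13.69 and 13.74 in control and at 13.56, 13.51 and 13.50 under PD325901. The groups did not overlap, yet the change of -0.19 missed the threshold (95% interval -0.35 to -0.04, adjusted p = 0.0574). It passed under 5 of the 20 alternatives, and 2 of its 3 dimmer probe sets were called lower, at -0.31 and -0.39. LDHB, the heart-type subunit gene, had a change of -0.10 (95% interval -0.26 to 0.06). HK2, the inducible hexokinase gene, stood at 11.47 ± 0.11 (SD, n = 4) in control and 11.57 ± 0.11 (SD, n = 3) under PD325901, a change of 0.10 (95% interval -0.12 to 0.32). GPI and TPI1, the isomerase genes of the upper chain, had changes of 0.03 (-0.17 to 0.22) and -0.09 (-0.25 to 0.08). The remaining enzyme genes HK1, HK2, GPI, TPI1, GAPDH, PGK1 and PKM had changes between -0.16 and 0.10, and none was called in the limma fit. In that fit 7 of the 17 enzymes had an unadjusted p under 0.05, beside 7663 of all 18132 genes. GAPDH stood at 13.85 ± 0.11 (SD, n = 4) in control and 13.88 ± 0.02 (SD, n = 3) under PD325901, and PGK1, whose 9 probe sets had changes of -0.18 to -0.02, at 13.62 ± 0.12 (SD, n = 4) and 13.56 ± 0.06 (SD, n = 3).

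Some of these enzyme genes varied widely among the controls. PKM, which encodes pyruvate kinase, stood at 12.45, 12.62, 13.14 and 13.01 on control replicates 1 to 4, and HK1, a hexokinase gene, at 12.52, 12.67, 12.98 and 13.11. Control replicates 3 and 4 were also those with the smallest gap of the 3′ over the 5′ end in the array's own control probe sets, at 3.46 and 2.96 for ACTB against 3.75 to 3.89 in replicates 1 and 2. For GAPDH that gap was 0.67 and 0.58 against 0.79 and 0.82. On the PD325901 arrays it was 3.50 to 4.15 for ACTB and 0.73 to 0.89 for GAPDH. The part of this in the control spread was not tested. Against control replicates 3 and 4 alone, HK1, ALDOA and PKM were called lower under PD325901 as well. That setting called 2518 genes lower and 5820 higher among all genes, against 2223 and 4142 in the main fit.

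Among the regulators PFKFB3 fell. PFKFB3, which makes the activator of phosphofructokinase, stood at 12.45, 12.40, 12.36 and 12.29 in control, at 12.40 and 12.36 under BB94 and at 12.11, 11.94 and 12.01 under PD325901. The fall was 1.28-fold (log2 -0.36, SE 0.08, adjusted p = 0.0043), and its other 3 probe sets lay below background, so that the mean of its probe sets gave no call (-0.09, adjusted p = 0.566). PFKFB4, of the same family, had a change of 0.14 (95% interval -0.16 to 0.44), and PDK1, the kinase gene that restrains pyruvate dehydrogenase, one of -0.04 (-0.21 to 0.13). The glucose transporter gene SLC2A1 stood at 13.29, 13.32, 13.35 and 13.36 in control and at 13.41, 13.50 and 13.42 under PD325901. These did not overlap, but the change of 0.11 was not called (95% interval -0.04 to 0.27, adjusted p = 0.266).

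**Figure D2:**
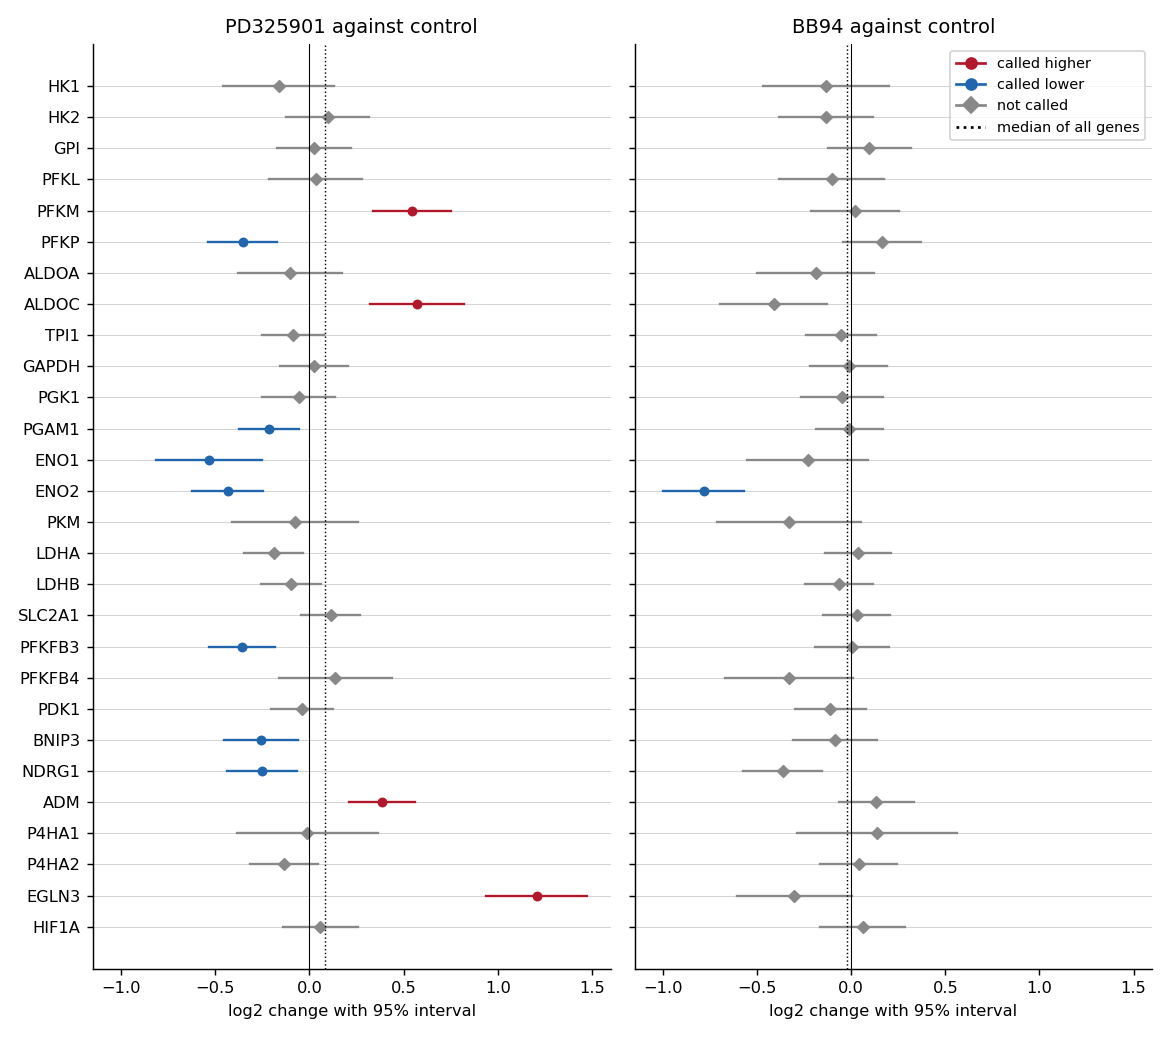
Log2 change of each gene other than MB with its 95% interval from the limma fit, for PD325901 (left) and BB94 (right) against control; colours give the calls and the dotted line the median of all genes. PD325901 has calls on both sides of 0, from ENO1 at -0.53 to EGLN3 at 1.21, and BB94 has a single call, ENO2 at -0.78.

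Isozymes were also compared within each array, as the log2 difference between the pair, which cancels any shift common to both. The chosen 5 pairs were each tested for both inhibitors, 10 tests in all, and PD325901 against control allows no exact permutation p below 0.0571 and BB94 none below 0.133. PFKM minus PFKP was -1.92 ± 0.12 (SD, n = 4) in control and -1.02 ± 0.13 (SD, n = 3) under PD325901, a 1.86-fold shift of the ratio, and every treated array lay above every control array (exact permutation p = 0.0571, two-sided, adjusted 0.222). ALDOC minus ALDOA was -6.26 ± 0.19 (SD, n = 4) in control and -5.58 ± 0.13 (SD, n = 3) under PD325901, a change of 0.67 with the same separation (exact permutation p = 0.0571, two-sided, adjusted 0.222). With the mean of the probe sets the change of this pair was 0.40. ENO2 minus ENO1 had a change of 0.10 under PD325901 (exact permutation p = 0.457) and of -0.55 under BB94 (exact permutation p = 0.133), where both BB94 arrays lay below all controls. HK2 minus HK1 and LDHB minus LDHA overlapped between PD325901 and control. Both BB94 arrays also lay below all controls in ALDOC minus ALDOA (-0.22) and LDHB minus LDHA (-0.10), each with an exact permutation p of 0.133. HK2 minus HK1 and PFKM minus PFKP overlapped between BB94 and control. None of the 10 tests can pass after adjustment.

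**Figure D3:**
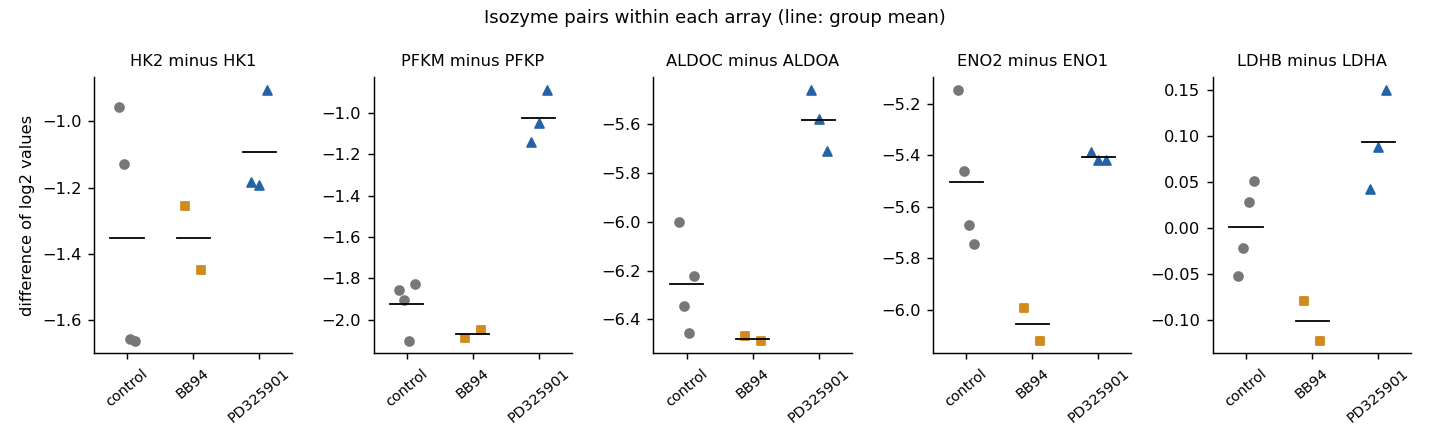
Difference of the log2 values of 5 isozyme pairs on each array (points) with group means (lines), for 4 control, 2 BB94 and 3 PD325901 arrays; vertical axes differ between panels. PFKM minus PFKP and ALDOC minus ALDOA are higher on all PD325901 arrays than on all controls, and the level of a difference between probe sets has no meaning of its own.

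A single gene was called under BB94. ENO2 fell, from 7.33 ± 0.08 (SD, n = 4) in control to 6.67 and 6.42 on the BB94 arrays, a 1.72-fold fall (log2 -0.78, SE 0.10, adjusted p = 0.0028), and 28 genes were not called. That is 3.45% of the 29 genes against 1.58% of all genes called in this comparison, and the 1 gene called lower stands beside 1.09% of all genes. None of the 29 was called at 2-fold or more, against 0.386% of all genes. No gene was called higher in the limma fit. An unadjusted p under 0.05 was found for 3 of the 29 (ENO2, NDRG1 and ALDOC), beside 1968 of all 18132 genes. The median change was -0.07 for the enzymes and -0.02 for the other hypoxia-response genes, against -0.02 for all genes. Without BB94 replicate 2 the ENO2 call was lost, at a change of -0.66. The BB94 values of ENO2 lay near the background levels of those arrays, 6.27 and 6.22. Against control replicates 3 and 4 alone, 7 genes were called lower (ENO2 with HK1, ALDOA, ALDOC, ENO1, PKM and NDRG1) and 1 higher (P4HA1), in a setting that called 774 genes lower and 859 higher among all genes. PFKFB4 differed between the BB94 arrays, at 8.58 and 8.01.

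The direct comparison of the inhibitors, which uses no control array in its difference, gave 6 genes higher and 2 lower under PD325901 than under BB94. That is 27.6% of the genes against 31.2% of all genes called, with 21% called higher and 10.2% called lower. MB and EGLN3 alone were called at 2-fold or more, or 6.9% of the genes against 8.59% of all genes. EGLN3 was higher by 1.51 (SE 0.14, adjusted p = 2.2e-05) and ALDOC by 0.98 (SE 0.13, adjusted p = 2.4e-04). MB was higher by at least 12.4-fold, PFKM by 0.52 and ENO2 by 0.35, and PFKFB4 by 0.47 at an adjusted p of 0.0499, a call lost under 13 of 20 alternatives. PFKP was lower by 0.52 (adjusted p = 0.002) and PFKFB3 by 0.36 (adjusted p = 0.0126). ENO2 therefore fell against control under both inhibitors and in the main fit lay lower under BB94. That difference was not called with trend and robust settings, cyclic loess or either centring, and fell to 0.02 at the least. The PFKM difference was not called with either centring and fell to 0.20 at the least. With arrays centred over genes the counts were 3 higher and 10 lower, with centring over probe sets 3 higher and 7 lower. The median change of all genes was then -0.21 and -0.10, and calls among all genes were not counted for this comparison under these settings. The ENO2 difference lost its call without BB94 replicate 2 and without each of the PD325901 replicates, that of PFKFB4 also without control replicates 2 or 3, that of PFKFB3 without either BB94 replicate or PD325901 replicate 2.

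**Figure D4:**
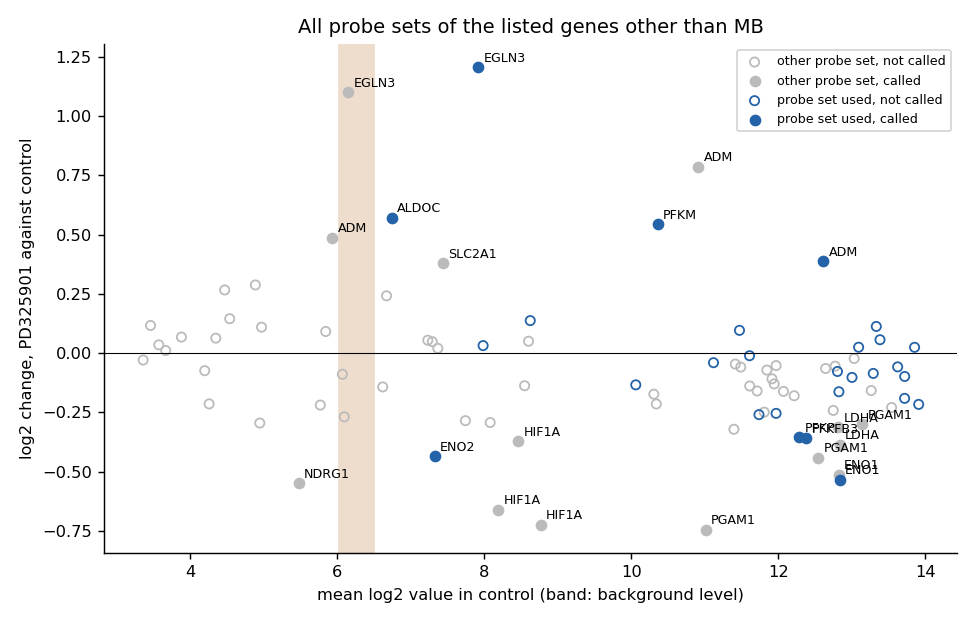
Log2 change under PD325901 against the mean control level for all probe sets of the 28 genes other than MB; blue marks the probe set used, filled points are called with p adjusted over all 49293 probe sets, and the band is the range of background levels. Called probe sets of PGAM1, LDHA and HIF1A lie at -0.74 to -0.30, and the probe set used for PGAM1 is not called under this adjustment.

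Where the probe set used was called, no other probe set of the gene was called the opposite way. The 29 genes had 91 probe sets, and of the 62 others, 38 lay above background on all arrays. In the fit over all probe sets, 6 others were called in the same direction as the probe set used under PD325901, and 0 in the opposite direction. A further 10 were called where the probe set used was not, in HIF1A, LDHA, NDRG1, PGAM1 and SLC2A1. The 3 of HIF1A were lower, against a change of 0.06 on the probe set used. Of the rest, NDRG1 fell by 0.55 on a probe set below background, and SLC2A1 rose by 0.38 on a probe set at 7.44 in control.

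Further genes of these pathways were read from lists of genes outside the 29. These lists, here and below, were chosen with earlier results of these data known. Their counts beside the shares of all genes are therefore a description and test nothing. Of 10 measured genes of HIF and its oxygen-sensing machinery, 5 rose under PD325901 and 5 were not called, where 22.8% of all genes were called higher and 12.3% lower. No gene fell in the limma fit, and 6 had an unadjusted p under 0.05, beside 7663 of all 18132 genes. EPAS1, which encodes HIF-2 alpha, stood at 8.68 ± 0.06 (SD, n = 4) in control and 11.24 ± 0.14 (SD, n = 3) under PD325901, a 5.90-fold rise (adjusted p = 1.8e-08). CITED2, an inhibitor of HIF's coactivator binding, rose 3.63-fold and ARNT2, a partner subunit, 2.50-fold. BB94 gave no call in this list in limma, with 1 unadjusted p under 0.05, beside 1968 of all 18132 genes. With the mean of their probe sets EPAS1 and ARNT2 rose by 1.39 and 0.38, and of the genes named next PPP1R3C rose by 0.94, PDK4 by 0.74 and PPARGC1A by 1.48, all still called.

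Further HIF targets moved both ways. Under PD325901 9 of the 24 measured genes rose and 4 fell, while 11 were not called, with a median change of 0.15, beside 22.8% and 12.3% of all genes. The 9 include KDM4B, which lay below background in both groups (5.31 and 5.79). PPP1R3C, a glycogen-targeting subunit gene, rose 2.94-fold, HMOX1, the heme oxygenase gene, at least 1.27-fold from below background, and LOX, which crosslinks collagen, 2.29-fold. VEGFA, the angiogenic growth factor gene, stood at 12.49 ± 0.14 (SD, n = 4) in control and 11.54 ± 0.09 (SD, n = 3) with the MEK inhibitor, and so fell 1.93-fold (adjusted p = 2.6e-05). BHLHE40, a transcriptional repressor gene above background on 2 of 3 PD325901 arrays, fell at least 2.18-fold, and LOXL2 fell 1.56-fold. Under BB94, 1 gene was called, ANGPTL4, with both groups below background.

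Genes around the glycolytic chain also moved both ways. Of 26 measured genes of glycolysis, pyruvate use and gluconeogenesis outside the 29, 10 rose, 2 fell and 14 were not called under PD325901, beside 22.8% of all genes called higher and 12.3% lower. The 10 include HKDC1, below background in both groups (4.76 and 5.85). LDHD, the D-lactate dehydrogenase gene, rose at least 2.09-fold, PDK4, a pyruvate dehydrogenase kinase gene, 2.67-fold and ENO3, the muscle-type enolase gene, 2.55-fold, in the direction opposite to ENO1 and ENO2. FBP1, the gluconeogenic fructose bisphosphatase gene, fell 2.19-fold and the monocarboxylate transporter gene SLC16A7 1.63-fold. Of 6 pentose phosphate genes, PGLS and PGD rose 1.48-fold and 1.29-fold, and both calls were lost with either centring. That of PGLS was also lost without control replicate 1 or 2, or without any PD325901 replicate (adjusted p up to 0.14). Limma called no gene of these lists under BB94, with 4 and 0 at an unadjusted p under 0.05, beside 1968 of all 18132 genes.

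Most genes in a list of regulators of glycolytic transcription and of glucose uptake, chosen in the same way, rose. Of 8 such genes, 6 were called higher under PD325901 and 2 were not called, beside 22.8% of all genes called higher. MLXIPL was above background on 1 of the 3 PD325901 arrays. PPARGC1A, a coactivator of mitochondrial biogenesis, stood at 8.54 ± 0.15 (SD, n = 4) in control and 11.26 ± 0.07 (SD, n = 3) under PD325901, a 6.59-fold rise (adjusted p = 2.3e-08). ARRDC4 and TXNIP, arrestin-family genes that restrain glucose uptake, rose 2.52-fold and 2.21-fold. TXNIP also rose under BB94, by 0.42 (adjusted p = 0.03), a call lost under 12 of 20 alternatives. It was lost with any 1 BB94 or PD325901 array, or any control array other than replicate 1, left out.

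**Figure D5:**
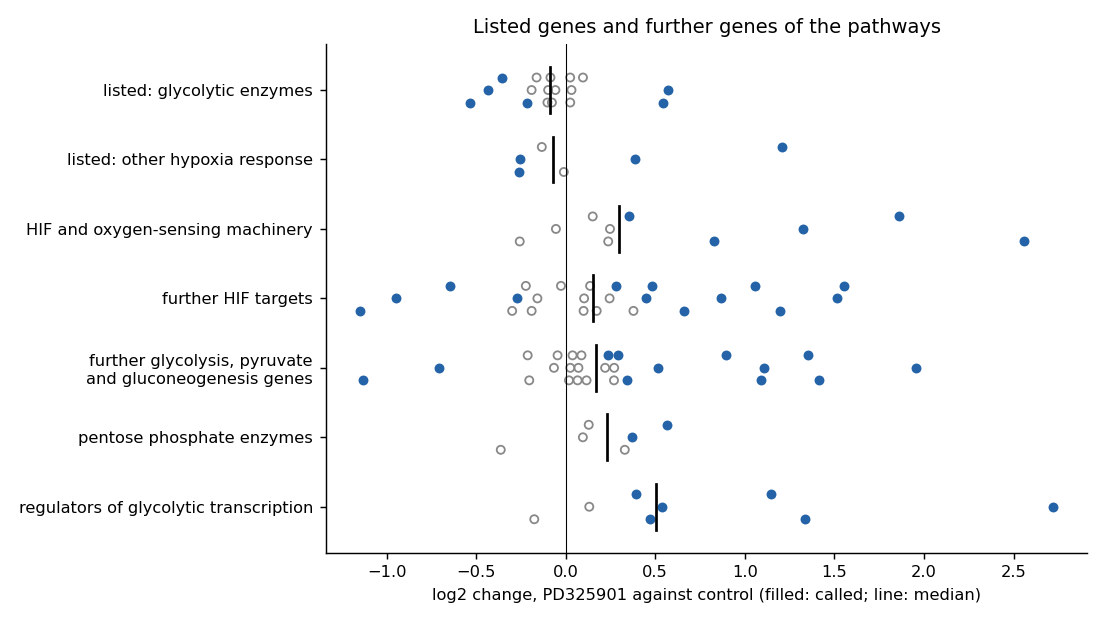
Log2 change under PD325901 against control for the glycolytic enzymes, the other hypoxia-response genes and the further genes of each list (points; filled where called), with list medians as lines. The medians run from -0.09 for the glycolytic enzymes to 0.50 for the list labelled regulators of glycolytic transcription, which also holds genes of glucose uptake, against 0.08 for all genes. The genes and lists were chosen with earlier results of these data known, so the medians are descriptive.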

How the data were processed

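The authors deposited log2 probe set summaries of PrimeView arrays, which the series text says were computed by RMA in affy (version not given). RMA corrects background and quantile-normalizes the arrays. The deposited values were used unscaled, and their medians differed between arrays. The median over genes was 7.50 to 7.61 in control, 7.58 and 7.39 under BB94 and 7.77 to 7.86 under PD325901. The median over probe sets ran from 6.05 to 6.34. Of 49395 probe sets, 102 control probe sets were left out, 44988 carried 1 gene symbol in the platform annotation, 1832 several and 2473 none. Promoters came from RefSeq (GRCh38.p14). The comparisons used limma 3.58.1 (R 4.3.3) with a coefficient per group, 6 residual degrees of freedom and no covariate; the two-sided test was tested on simulated data. "At least N-fold" sets the brighter group's mean against the higher of background and the gene's value, per array. The number of arrays limits precision. All listed genes are named, and from each further list up to 3 called genes each way under PD325901 and 2 under BB94. The genes and lists were chosen with earlier results of these data known. Alternatives were another probe set rule, a filter, other moderation, scalings, a replicate block, fewer groups and fewer arrays.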

Additional observations from a re-analysis of the deposited data

How the results depend on the processing

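For PD325901 against control, the 7 falls became 4 with all probe sets tested without collapse, with the replicate block, with the compared groups alone and with control replicates 1 and 2 alone, and 4 to 7 with 1 array left out (PGAM1, BNIP3 and NDRG1 were lost). Over all genes the first of these settings called 2102, 2140, 2133 and 2641 lower in that order, against 2223 in the main fit. With 1 array left out, 1779 to 2312 of all genes were called lower. Centring on the median over genes gave 3 higher and 15 lower, in a setting that called 2353 genes higher and 5076 lower among all genes. For BB94, 1 fall became 2 with the mean of the probe sets and with trend and robust settings, 7 with control replicates 3 and 4 alone, where 1 gene was also higher, and 0 to 2 with 1 array left out. Over all genes, 197 were called lower under BB94 in the main fit and also with the mean of the probe sets. Trend and robust settings gave 201, and control replicates 3 and 4 alone 774. For PD325901 against BB94, where calls over all genes were not counted under the alternatives, 6 higher became 3 with either centring. There, 2 lower became 4 with the filter, with trend and robust settings, with the compared groups alone and with control replicates 1 and 2 alone, 5 with control replicates 3 and 4 alone, 10 and 7 with centring over genes and over probe sets, and 1 to 2 with 1 array left out.

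The enzyme median under PD325901 was -0.34 and -0.19 with centring over genes and probe sets, 0.0436 with control replicates 1 and 2 alone and -0.16 with replicates 3 and 4 alone. That of the other hypoxia-response genes was -0.33, -0.17, -0.15 and 0.0814 in that order, and -0.13 to -0.00493 with 1 array left out. Under BB94 the enzyme median was 0.00777 and 0.048 with the centrings and 0.0157 with control replicates 1 and 2 alone, and the other median 0.0496 and 0.0898 with the centrings and -0.13 to 0.0593 with 1 array left out. For PD325901 against BB94 the medians were -0.33 and -0.34 with centring over genes, -0.22 and -0.23 over probe sets, 0.0569 for the enzymes with cyclic loess and 0.11 for the others with the mean of the probe sets. P4HA1 turned to 0.28 under PD325901 with control replicates 3 and 4 alone, and PFKFB3 to 0.0163 against BB94 with the mean of the probe sets. The cause was not tested. The replicate numbers did not pair the arrays (correlations of same-numbered deviations from -0.19 to 0.12), and the replicate block left 5 higher and 4 lower under PD325901 and ENO2 as the call of BB94. Where a setting leaves 1 BB94 array, it is assumed to vary like the others. No control value met the test for an outlying sample among the 29 genes. That test looks for a single value apart from the rest, so it could not flag control replicates 3 and 4 standing apart together.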
